A study of Homo sapiens with 8 samples.

Results

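The histone genes are the set described here, in a human neuroblastoma cell line with and without knockdown of METTL14. Members were taken by gene name: names of the HIST1 to HIST4 clusters, and names starting with H1F, H2AF or H3F, with pseudogenes marked PS left out. This gave 104 of the 56303 genes in the count table. Of these, 76 were HIST genes, the replication-dependent histones, 16 were replacement histone genes, and 12 were copies of replacement genes whose names end in P and a number. The HIST genes comprised 6 linker H1, 17 H2A, 23 H2B, 15 H3 and 15 H4 genes. The HIST1 cluster on chromosome 6 held 55 of them, the HIST2 cluster on chromosome 1 held 16, the HIST3 cluster on chromosome 1 held 4, and HIST4H4 lay on chromosome 12. All 104 members matched the RefSeq table, which lists 6 HIST genes and all 12 copies as pseudogenes.

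MeRIP-seq had been run on SK-N-BE(2), an established human line of neuroblastoma origin. One arm had a control shRNA, written sh-NC, and the other an shRNA that targets METTL14, written shMETTL14, with no other allele or agent named in the labels. Each arm had 2 numbered samples, called cultures here, and each culture gave an input library and an IP library enriched with an antibody against N6-methyladenosine (m6A), 8 libraries in all. The labels do not state whether the cultures were grown separately or which METTL14 shRNA each one carried, so p-values measure only the spread between these samples, which may be technical. METTL14, the partner of METTL3 in the m6A methyltransferase, had 49.2 ± 0.550 CPM in the sh-NC inputs and 14.2 ± 0.680 CPM in the shMETTL14 inputs (SD, n = 2), where CPM is the count scaled to library size with TMM factors. Total counts ran from 32027379 to 47205265 per library. All 9 neuroblastoma markers reported, among them MYCN and HAND2, had a mean of at least 3.27 CPM in the inputs. Of 7 markers of other cell types, 4 were under 1 CPM, ALB was at 0, and COL1A1 was highest at 69.4 CPM.

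Histone proteins package DNA into nucleosomes, and linker H1 histones bind the DNA between them. Replication-dependent histones are made mainly in S phase from clustered genes whose mRNAs lack introns and normally end in a stem-loop without a poly(A) tail. Most replacement histones are made throughout the cell cycle, mainly from polyadenylated mRNAs. The RNA of these libraries was captured by its poly(A) tail before it was broken into pieces, so the histone levels are those of the captured RNA. How many HIST or replacement mRNAs escaped the capture was not tested.

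Many promoters of members held motifs that the naming rule did not use, and the motifs differed by family. In the 250 bases before the RefSeq start (GRCh38.p14), 3 motifs were searched on both strands: CCAAT, the box bound by NF-Y; TATAAA, the core box bound by TBP; and ATTTGCAT, the octamer bound by OCT1. CCAAT was present in 84.6% of 65 HIST promoters and 78.6% of 14 replacement promoters, against 32.0% of 35116 promoters of all genes. TATAAA was present in 66.2% of HIST, 28.6% of replacement and 10.7% of all promoters, and the octamer in 40% of HIST, 7.14% of replacement and 1.63% of all. All HIST promoters without CCAAT belonged to H4 genes. Outside the H2A and H2B genes, HIST1H3D was the only HIST gene with the octamer, and its promoter is that of HIST1H2AD. The promoters are not all distinct. Those of HIST2H4A and HIST2H4B are identical, as are those of H2AFB1, H2AFB2 and H2AFB3. Some promoters of divergent H2A and H2B genes overlap. The promoters of 3 genes whose input RNA differed between the arms are shown 5′ to 3′ on the gene's own strand, with matches to the 3 motifs in capitals: HIST3H2A, the HIST gene that rose; HIST1H2BK, the HIST gene with the most counts among those that fell; and H2AFX, a replacement gene that fell. All 3 genes are on the minus strand.
HIST3H2A, chr1:228457874-228458123: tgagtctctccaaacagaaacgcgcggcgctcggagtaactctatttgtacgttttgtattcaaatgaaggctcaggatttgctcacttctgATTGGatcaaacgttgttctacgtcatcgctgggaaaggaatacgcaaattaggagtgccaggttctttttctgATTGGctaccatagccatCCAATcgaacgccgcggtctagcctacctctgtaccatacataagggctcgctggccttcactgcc
HIST1H2BK, chr6:27146859-27147108: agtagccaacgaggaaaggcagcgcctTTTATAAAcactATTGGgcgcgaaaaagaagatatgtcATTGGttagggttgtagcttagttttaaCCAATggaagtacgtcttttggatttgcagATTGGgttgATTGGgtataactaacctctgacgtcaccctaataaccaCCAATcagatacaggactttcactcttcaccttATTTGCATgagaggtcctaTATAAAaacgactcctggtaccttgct
H2AFX, chr11:119095466-119095715: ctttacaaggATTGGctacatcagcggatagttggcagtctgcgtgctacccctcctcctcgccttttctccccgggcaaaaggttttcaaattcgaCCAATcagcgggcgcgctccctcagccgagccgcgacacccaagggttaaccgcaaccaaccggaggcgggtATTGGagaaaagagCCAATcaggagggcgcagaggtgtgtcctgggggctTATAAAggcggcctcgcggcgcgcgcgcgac
Each of these windows held CCAAT, the HIST1H2BK and H2AFX windows also held TATAAA, and the HIST1H2BK window held all 3 motifs. Among the replacement genes, H3F3B was the only one of 14 whose window held the octamer. These matches describe letters in a window and not bound sites.

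HIST genes were low in the inputs and replacement genes were high. The median HIST gene had a mean input count of 10.9, and 35 of 76 were under 10, while 7 reached 100. At 5 HIST genes, 1 replacement gene and 2 copies no count was seen in any library. The 11 replacement genes that passed the low-count filter had mean input counts from 579.5 to 9182. The other 5, H1FNT, H1FOO, H2AFB1, H2AFB2 and H2AFB3, had at most 6 counts in any library. Per length, the median of the 46 HIST genes tested in the inputs was 0.712 CPM per kb, against 37.8 CPM per kb for the replacement genes tested and 2.84 CPM per kb for all genes tested. HIST3H2A was the highest HIST gene per length at 13.8 CPM per kb, and H1FX was the highest replacement gene at 127 CPM per kb. The plot of levels by rank shows both classes.

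**Figure D1:**
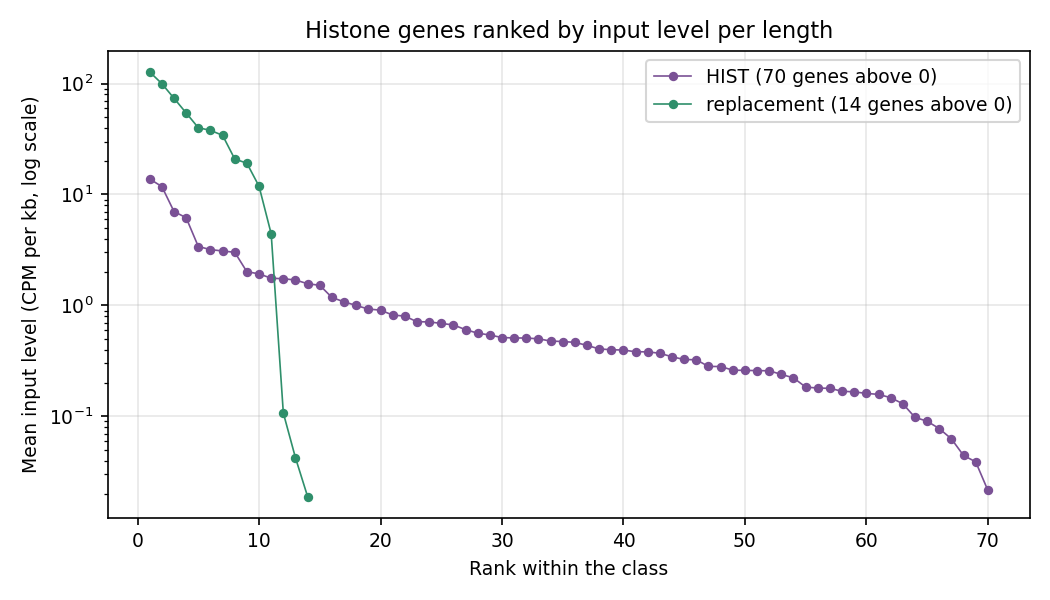
Mean input level over 4 libraries in CPM per kb of listed exons (log scale) against rank within the class, for HIST genes and replacement histone genes above 0. The highest HIST gene, at 13.8 CPM per kb, lies below the median of the replacement genes tested, at 37.8 CPM per kb.

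Summed over its genes, the HIST class had 74.3 ± 2.66 CPM in the sh-NC inputs and 69.8 ± 4.51 CPM in the shMETTL14 inputs (SD, n = 2), a difference within the spread between the cultures. HIST3H2A alone supplied 12.7% and 13.6% of HIST counts in sh-NC inputs against 21.9% and 20.8% in shMETTL14 inputs. Without it the sums were 64.5 ± 2.79 CPM in sh-NC and 54.9 ± 3.03 CPM in shMETTL14. The lowest sh-NC library then lay above the highest shMETTL14 library. HIST3H2A is the HIST gene called higher in this same comparison, and no gene that fell was left out. The separation is therefore not independent of that call. Replacement genes summed to 1502 ± 13.4 CPM in the sh-NC inputs and 1341 ± 19.2 CPM in the shMETTL14 inputs. Of that difference of 161 CPM, H3F3B made up 108 CPM. In bulk RNA, fewer cells of a type and less RNA per cell cannot be told apart.

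The input comparison asks how the RNA level of each gene differed between knockdown and control cells. Among the replacement genes the H3.3 gene H3F3B fell most, with H3F3C beside it, 4 H2A and H1 genes fell slightly, and the linker gene H1F0 rose. Of 11 replacement genes tested, 1 was higher and 6 were lower in shMETTL14 at an adjusted p under 0.05 in edgeR's quasi-likelihood test. That is 9.09% higher and 54.5% lower, against 11.7% higher and 12.3% lower among all 22245 genes tested. The median log2 fold change was -0.12 over the replacement genes and 0.00 over all genes. Of the 11, 8 had both shMETTL14 inputs below both sh-NC inputs and 1 had both above, 72.7% and 9.09%, against 29.9% and 28.5% of all genes tested.

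H3F3B (chr17:75776434-75785893, minus strand, GRCh38) encodes histone H3.3, the H3 variant that is placed into chromatin outside replication. Its counts were 9296 and 9610 in sh-NC inputs against 6605 and 6469 in shMETTL14 inputs, or 260.0 and 266 CPM against 156 and 155 CPM. Both shMETTL14 cultures were well below both controls. The log2 fold change was -0.75 (SE 0.0356), with an adjusted p of 1.13e-13 in edgeR's quasi-likelihood test, and it lay between -0.77 and -0.74 in all 11 alternative fits that hold the inputs. H3F3A, which encodes the same H3.3 protein from another locus, had 117 and 129 CPM in sh-NC inputs against 117 and 113 CPM in shMETTL14 inputs. Its log2 fold change of -0.10 (SE 0.0449) did not pass, at an adjusted p of 0.118 in edgeR's test. H3F3C, an intronless gene for an H3.3-like protein, had 916 and 905 counts against 686 and 584. Its log2 fold change was -0.74 (SE 0.0806), with an adjusted p of 1.70e-07 in edgeR's test. H3F3C is similar in sequence to H3F3B, its count was 9.03% to 10.4% of that of H3F3B in every input, and how many of its reads belong to H3F3B was not tested.

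H2A variants moved little. H2AFX encodes H2A.X, the variant phosphorylated at DNA breaks, and it had 121 and 133 CPM in the sh-NC inputs against 111 and 110 CPM in the shMETTL14 inputs. Its log2 fold change was -0.19 (SE 0.0438), with an adjusted p of 0.00226 in edgeR's test. H2AFZ and H2AFV encode the H2A.Z proteins found at promoters. H2AFZ had 128 and 139 CPM against 121 and 113 CPM (log2 fold change -0.18, SE 0.0456, edgeR adjusted p = 0.00438). H2AFV had 103 and 104 CPM against 96.6 and 93.1 CPM (log2 fold change -0.12, SE 0.0420, edgeR adjusted p = 0.0403). For all 3 genes the groups did not overlap, by narrow margins, and each call depended on the fit. The H2AFX call was lost without either shMETTL14 culture, the H2AFZ call without sh-NC culture 2 or shMETTL14 culture 2, and the H2AFV call without any one culture, by DESeq2 and with library size alone. Without the filter on low counts none of the 3 passed. The macroH2A genes H2AFY and H2AFY2 and the H2A gene H2AFJ did not pass, with log2 fold changes of -0.08, -0.03 and 0.03.

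The replacement linker histones went opposite ways. H1F0 (chr22:37805093-37807436, plus strand), which encodes H1.0, the linker histone that accumulates in cells that stop dividing or differentiate, had 214 and 212 CPM in sh-NC inputs against 256 and 253 CPM in shMETTL14 inputs. Both knockdown cultures were above both controls, the log2 fold change was 0.26 (SE 0.0343), and the adjusted p was 2.66e-06 in edgeR's test. This call held in all 12 alternative fits. H1FX, which encodes H1.X, had 210.3 and 194 CPM against 182 and 179.8 CPM. Its log2 fold change was -0.15 (SE 0.0396), with an adjusted p of 0.00607 in edgeR's test, and the call was lost without sh-NC culture 1 or either shMETTL14 culture. Without the filter on low counts H1FX was at -0.14 and did not pass either. H1FX shares 22.9% of its exon bases with an antisense gene, H1FX-AS1, whose log2 fold change was -0.17, and reads of the shared part cannot be told apart. None of the 4 copies tested passed.

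**Figure D2:**
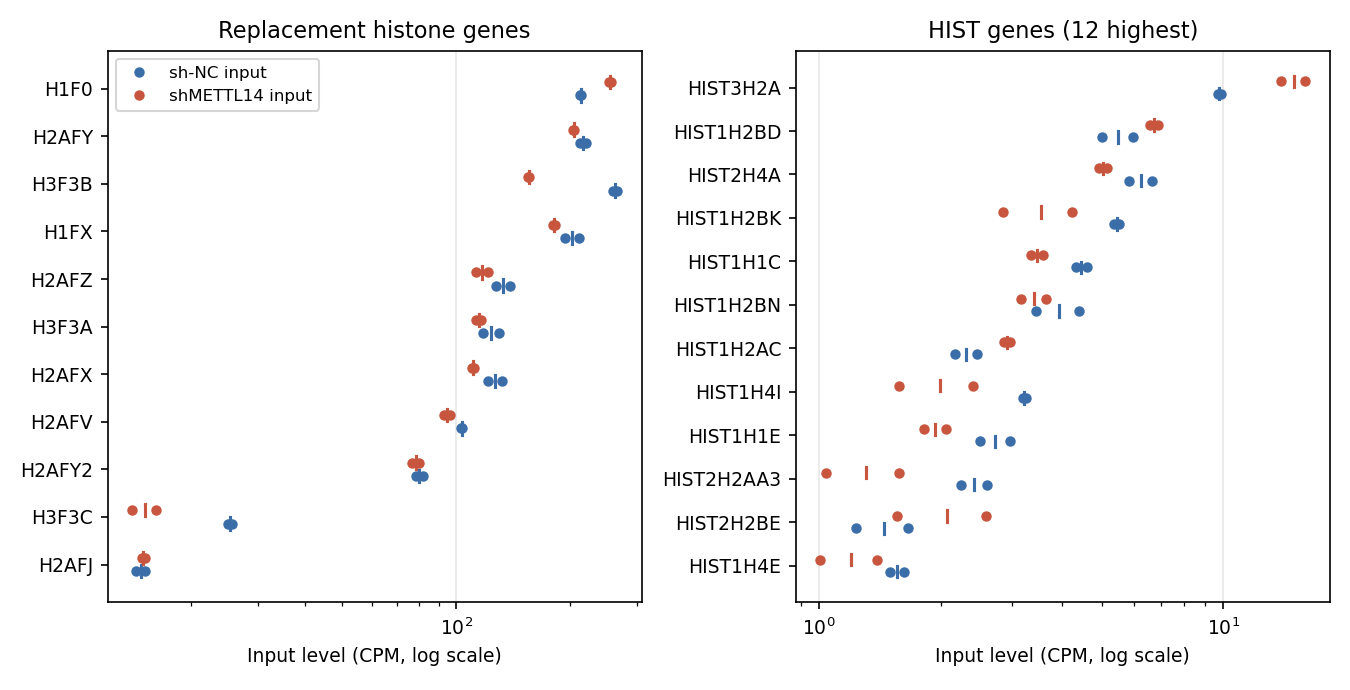
Input level in CPM (log scale) of each library for the 11 replacement genes tested and the 12 HIST genes with the highest mean input count; points are libraries and ticks are means of 2 cultures. H3F3B and H3F3C lie lower and H1F0 and HIST3H2A higher in both shMETTL14 cultures than in both sh-NC cultures.

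Among the HIST genes 1 rose and 5 fell. Of 46 tested, that is 2.17% higher and 10.9% lower, at or below the shares among all genes, 11.7% and 12.3%. Most of the remaining HIST genes lay below 0 without passing: 34 of 46 log2 fold changes were negative and 12 positive, with a median of -0.33 against 0.00 over all genes. Both shMETTL14 inputs lay below both sh-NC inputs at 24 of the 46 genes, or 52.2%, and above them at 7, or 15.2%, against 29.9% and 28.5% of all genes tested. By family the median log2 fold change was -0.42 for H1 (3 tested), -0.46 for H2A (11), -0.17 for H2B (16), -0.59 for H3 (7) and -0.36 for H4 (9). HIST genes of 1 exon block and at most 600 bases, the classical form, had a median of -0.57 over 17 tested, and the other 29 had a median of -0.19. All genes of that short form had a median of -0.07 over 1411 tested. The low-count filter can keep a gene on the libraries of 1 arm alone. HIST1H3B was kept with 11 and 10 counts in sh-NC inputs against 4 and 6 in shMETTL14 inputs. HIST1H2AL was kept with 8 and 4 against 19 and 14. How much such genes add to the signs, non-overlaps and medians of the HIST genes was not tested.

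HIST3H2A (chr1:228456979-228457873, minus strand), an H2A gene of the small HIST3 cluster, was the HIST gene that rose. Its counts were 346 and 356 in sh-NC inputs against 677 and 580 in shMETTL14 inputs, or 9.68 and 9.87 CPM against 16.0 and 13.9 CPM. Both knockdown cultures were above both controls. The log2 fold change was 0.61 (SE 0.0982) and the adjusted p was 4.03e-05 in edgeR's quasi-likelihood test, and the call held in all 12 alternative fits. Its divergent neighbour HIST3H2BB, an H2B gene whose listed start lies 233 bases away, is named because its promoter window overlaps the one printed for HIST3H2A. Its counts were 18 and 15 in sh-NC inputs against 17 and 16 in shMETTL14 inputs, and its log2 fold change of -0.20 (SE 0.433) did not pass.

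The 5 HIST genes that fell were an H2B, an H4, an H3 and 2 H2A genes of different clusters, all with few counts. HIST1H2BK was counted 197 and 194 times in sh-NC inputs against 179 and 119 times in shMETTL14 inputs (log2 fold change -0.61, SE 0.166, edgeR adjusted p = 0.00817). HIST1H4I had 116 and 115 counts against 102 and 66 (log2 fold change -0.67, SE 0.206, edgeR adjusted p = 0.0191). In both genes shMETTL14 culture 2 was the lower one, and without it the log2 fold changes were -0.36 and -0.41 and did not pass. DESeq2 did not call HIST1H4I either, nor did HIST1H4I or HIST1H2BK pass without the filter on low counts, and in the IP libraries alone none of the 5 genes passed. HIST2H2AA3 was counted 80 and 94 times in sh-NC inputs against 44 and 66 times in shMETTL14 inputs (log2 fold change -0.86, SE 0.243, edgeR adjusted p = 0.0109). Without the filter on low counts HIST2H2AA3 was at -0.84 and did not pass. Its near-identical copy HIST2H2AA4 had 36 and 36 against 44 and 16 (log2 fold change -0.46, not passing, and 0.050 without shMETTL14 culture 2), and how reads were divided between the pair is not given in the sources used here. HIST1H2AM and HIST1H3J, an H2A and an H3 gene, share 346 exon bases on the same strand, and in the inputs the count of HIST1H2AM was 89.5% to 96.8% of that of HIST1H3J. HIST1H2AM was counted 61 and 60 times in sh-NC inputs against 34 and 35 times in shMETTL14 inputs (log2 fold change -0.99, SE 0.279, edgeR adjusted p = 0.0104), HIST1H3J had 63 and 66 against 38 and 38 (log2 fold change -0.95, SE 0.269, edgeR adjusted p = 0.0109), and most of these reads may be the same reads. Without shMETTL14 culture 2 none of the 5 passed, and without sh-NC culture 1 or shMETTL14 culture 1 only 2 HIST genes were lower.

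The other HIST genes among the 12 with the most counts lay on both sides of 0 and did not pass. The linker genes HIST1H1C and HIST1H1E had log2 fold changes of -0.35 (SE 0.155) and -0.48 (SE 0.203), with edgeR adjusted p-values of 0.109 and 0.0943, and both shMETTL14 inputs below both controls. HIST2H4A and HIST1H4E, which encode H4, were at -0.30 and -0.36, and HIST2H4B, the near-identical copy of HIST2H4A, was at -0.12 with 6 to 14 counts per input and turned to 0.27 without shMETTL14 culture 2. Among the H2A and H2B genes HIST1H2BD was at 0.30, HIST1H2AC at 0.34, HIST2H2BE at 0.51 and HIST1H2BN at -0.19. With 1 culture left out HIST2H2BE ranged from 0.10 to 0.82 and HIST1H2BN from -0.36 to -0.012, and in the IP libraries alone they turned to -0.13 and 0.20.

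**Figure D3:**
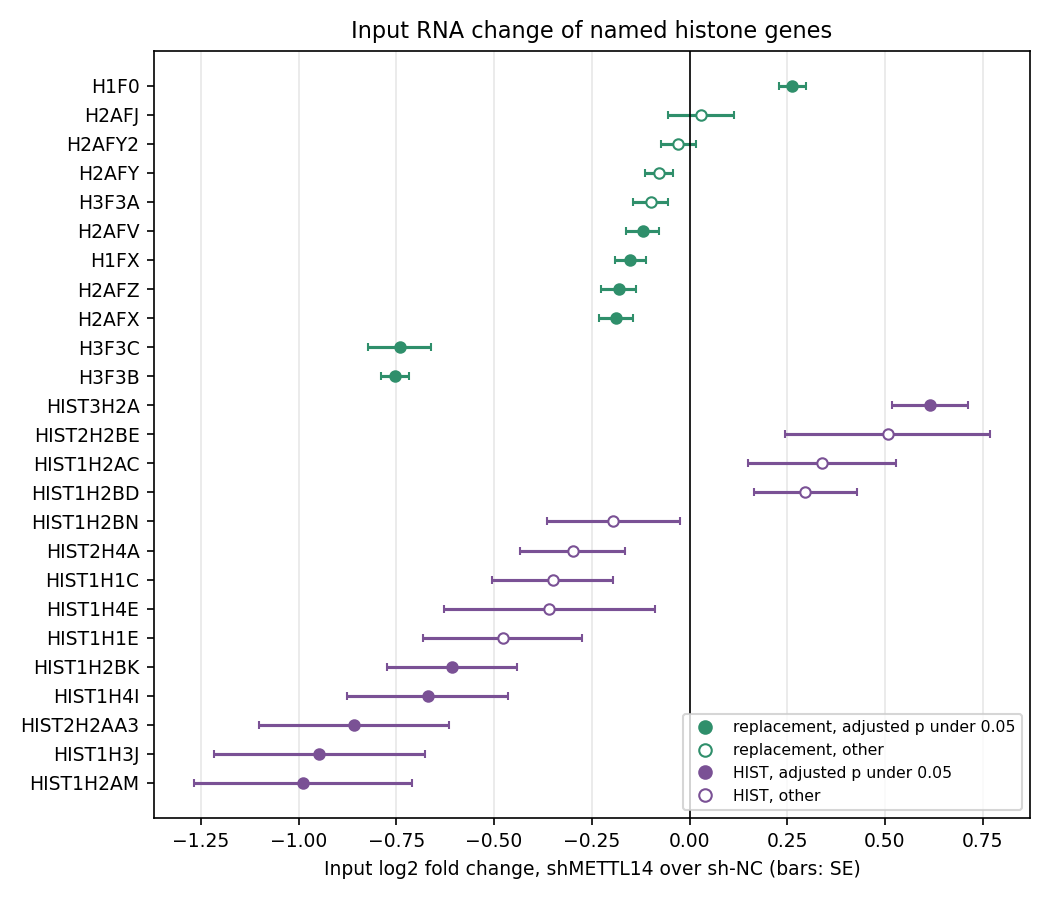
Input log2 fold change of shMETTL14 over sh-NC with its SE for the 11 replacement genes and the HIST genes named, from edgeR's fit of 4 input libraries; filled points passed an adjusted p of 0.05. H3F3B and H3F3C stand at -0.75 and -0.74, and HIST3H2A at 0.61.

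Other genes of histone biology were read from lists. Of 26 S phase genes tested, 3 were higher and 18 lower in shMETTL14, with a median log2 fold change of -0.24, against 11.7% higher and 12.3% lower among all genes. The ribonucleotide reductase subunit RRM2 fell by 0.68 on the log2 scale, the replicative helicase subunit MCM5 fell by 0.51 and thymidylate synthase, TYMS, fell by 0.49, while cyclin E1, CCNE1, rose by 0.85. The part that the share of cells in S phase plays in the HIST values was not tested. Of 19 genes for synthesis and 3′ end processing of histone mRNA, 2 were higher and 2 lower, with a median of -0.02. In that list the exonuclease ERI1 fell by 0.31, the nuclease subunit CPSF3 fell by 0.13, the histone gene regulator HINFP rose by 0.30 and SRRT rose by 0.12. SLBP, which binds the stem-loop of HIST mRNAs, was at -0.10 (SE 0.0406) with an edgeR adjusted p of 0.0685, and NPAT, the coactivator of HIST genes, was at -0.02. Of 26 histone chaperone and variant exchange genes, 5 were higher and 7 lower, with a median of -0.04. CABIN1, a subunit of the HIRA complex that places H3.3, rose by 0.56, whereas CHAF1B, a subunit of the replication-coupled chaperone CAF-1, fell by 0.44, the H2A and H2B chaperone NAP1L1 fell by 0.41 and the CENPA chaperone HJURP fell by 0.22. CENPA, the centromeric H3 variant that lies outside the naming rule, was at -0.14 and did not pass. The neuroblastoma markers summed to 5872 to 6103 CPM in the sh-NC inputs and 6212 to 6293 CPM in the shMETTL14 inputs, and 7 of 9 were higher in shMETTL14. The markers of other cell types summed to 108 to 111 CPM in the sh-NC inputs and 71.6 to 73.2 CPM in the shMETTL14 inputs, with 2 of 4 tested lower, and their part in the histone values was not tested.

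IP over input asks which histone mRNAs the m6A antibody enriched relative to the average gene. In both arms the replacement genes spread widely: mRNAs for linker H1, H2A.X and H2AFJ were above the average gene, and mRNAs for H3.3 and H2AFZ were below it. In sh-NC 4 of 11 were higher in the IP and 6 lower by edgeR's quasi-likelihood test, or 36.4% and 54.5%, against 29.1% and 29.8% of all 22953 genes tested. In shMETTL14 the counts were again 4 and 6, against 28.9% and 29.1% of all genes. H1F0 had IP over input ratios of 1.54 and 1.71 in sh-NC against 1.53 and 1.53 in shMETTL14 (log2 0.69, SE 0.0399, and 0.61, SE 0.0394). H2AFX had ratios of 1.52 and 1.40 in sh-NC against 1.43 and 1.45 in shMETTL14. All 4 cultures were above 1 for both genes, as they were for H2AFJ, at 1.32 to 1.53, and H1FX, at 1.15 to 1.33. H2AFV had ratios from 0.918 to 1.04 and did not pass in either arm.

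H3F3B had IP over input ratios of 0.546 and 0.529 in sh-NC against 0.592 and 0.600 in shMETTL14 (log2 -0.90, SE 0.0394, and -0.75, SE 0.0412). H3F3A had ratios from 0.693 to 0.778, H3F3C from 0.225 to 0.252 and H2AFZ from 0.405 to 0.441 over the 4 cultures. H2AFY, which shares 30.9% of its exon bases with other genes, and H2AFY2 were also lower, at log2 -0.47 and -0.22 in sh-NC. All of these ratios were below 1 in every culture. The 4 copies tested, H2AFZP3, H3F3AP4, H3F3AP6 and H3F3BP1, were lower in the IP in both arms, with log2 values from -1.42 to -2.90 in sh-NC. All genes of 1 exon block and at most 600 bases, the form of these copies, had a median of -0.52 there, with 37.1% lower. H2AFZP3 had 8 to 16 counts per input and 0 to 5 per IP, and H3F3BP1 had 33 to 47 and 0 to 4. The low-count filter kept these genes through their inputs alone, so low IP values were partly built in. H3F3AP4 was counted at 15.1% to 17.3% of H3F3A in the inputs and 7.84% to 8.87% in the IPs, and how many of its reads belong to H3F3A was not tested.

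Fewer HIST genes were called in IP over input. The median HIST gene had a mean input count of 10.9. In sh-NC 7 of 48 tested were higher in the IP and 7 lower, 14.6% each, against 29.1% and 29.8% of all genes, and the median log2 value was -0.14. In shMETTL14 8 were higher and 4 lower, 16.7% and 8.33%, against 28.9% and 29.1%, with a median of 0.18. The log2 values of HIST genes ran from -2.17 to 1.44 in sh-NC. The lowest, HIST1H2BF, passed there, with an edgeR adjusted p of 0.00434. It had 18 and 12 counts in sh-NC inputs against 4 and 0 in sh-NC IPs. HIST1H4A at -1.32 and HIST1H2AJ at -1.13 did not pass in sh-NC. The part that low counts play in these shares was not tested. All 4 HIST H1 genes tested and both replacement H1 genes had log2 values above 0 in both arms, and 4 of these 6 passed in each arm. The other 2, HIST1H1B and HIST1H1D, had only 4 to 26 and 4 to 16 counts per library. For HIST1H1D the ratios in shMETTL14 were 0.516 and 4.31, on both sides of 1. HIST1H1C was counted 154 and 166 times in sh-NC inputs against 410 and 272 times in sh-NC IPs, with ratios of 2.09 and 1.94 there and 1.72 and 1.87 in shMETTL14. HIST1H1E had ratios of 1.63 and 1.84 in sh-NC against 1.75 and 1.92 in shMETTL14. HIST1H1C and HIST1H1E passed in both arms, with edgeR adjusted p-values of at most 0.000186.

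Outside the H1 family, HIST2H4A had ratios from 1.70 to 1.96, HIST1H2BD from 1.38 to 1.76 and HIST3H2A from 1.28 to 1.67, and these passed in both arms. The highest HIST gene was HIST1H2BE, at log2 1.44 in sh-NC and 1.34 in shMETTL14, which passed in both arms. HIST1H2BE had 37 to 67 counts per input and ratios from 2.23 to 3.25. It shares 28.2% of its exon bases with other genes. HIST1H2BK had ratios of 0.678 and 0.648 in sh-NC against 0.607 and 0.901 in shMETTL14 and was lower in both arms. In shMETTL14 its log2 value of -0.46 was -0.14 without shMETTL14 culture 1 and did not pass, nor did it by DESeq2. HIST genes of 1 exon block and at most 600 bases had 0 higher and 5 lower of 18 in sh-NC, with a median of -0.67, and 0 higher and 2 lower in shMETTL14, with a median of -0.32. Of all 1518 genes of that short form tested, 11.3% were higher and 37.1% lower in sh-NC, with a median of -0.52, and 10.7% and 35.9% in shMETTL14, with a median of -0.50. The low-count filter can keep a gene on its inputs alone. It kept HIST1H4A with 13 and 13 counts in sh-NC inputs against 9 and 0 in sh-NC IPs. How much such genes add to the values of the short form was not tested.

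**Figure D4:**
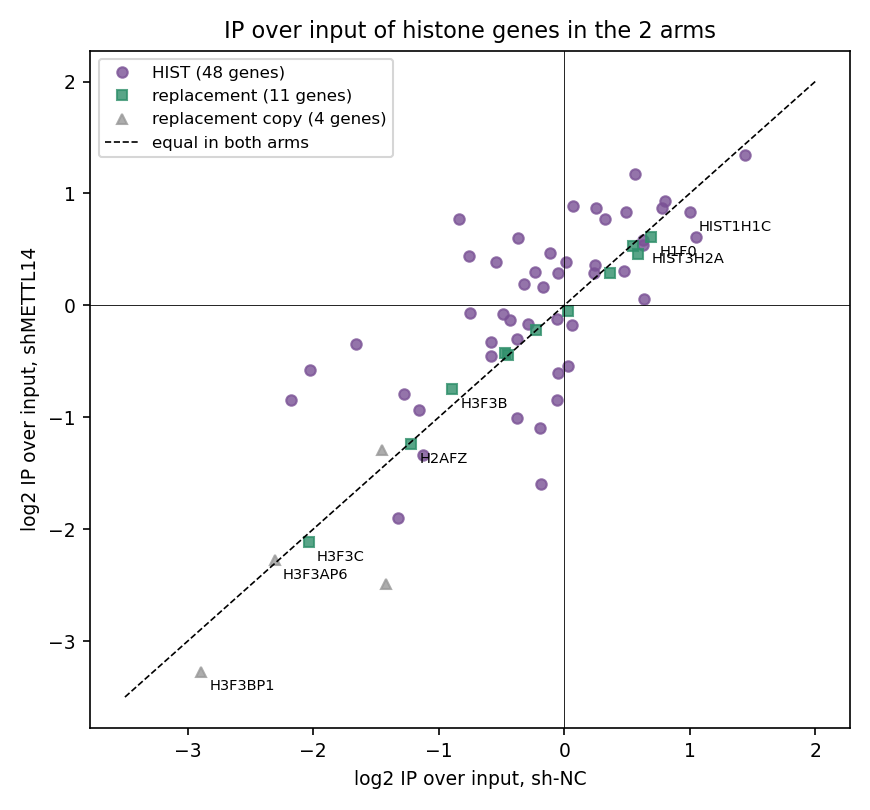
Log2 IP over input in shMETTL14 against sh-NC for 48 HIST genes, 11 replacement genes and 4 copies, from edgeR's fit of 8 libraries; the dashed line marks equal values. Replacement genes lie close to the line, from H3F3C at -2.04 and -2.12 to H1F0 at 0.69 and 0.61, and HIST genes scatter around it.

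The change of IP over input asks whether the relative m6A signal of a gene differed between the arms. No member changed by edgeR's quasi-likelihood test, 0 of 48 HIST genes, 0 of 11 replacement genes and 0 of 4 copies, and DESeq2 called 0 of the HIST and replacement genes as well. Among all 22953 genes the shares called were 0% higher and 0.00436% lower, which is 1 gene. At an unadjusted p under 0.05 there were 0 HIST genes, 1 replacement gene, H3F3B, and 1 copy, H2AFZP3. Among all 22953 genes 696 were higher and 760 lower at that unadjusted threshold. H2AFZP3 had only 5 and 2 counts in sh-NC IPs and 0 and 0 in shMETTL14 IPs. For H3F3B the change was 0.15 (SE 0.0569), with an edgeR adjusted p of 0.679, and both shMETTL14 ratios, 0.592 and 0.600, were above both sh-NC ratios, 0.546 and 0.529. The input values enter this change with the opposite sign, so it is not independent of the fall of H3F3B in the inputs. In the IP libraries alone H3F3B was also the lower in shMETTL14, by a log2 fold change of -0.61 (SE 0.0435), and HIST3H2A higher, at 0.52 (SE 0.0884).

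The replacement genes had a median change of -0.02, from -0.13 to 0.15. The HIST genes had a median change of 0.17, with 31 of 48 positive, against 0.00 over all genes, and none passed. Their inputs, with a median log2 fold change of -0.33, enter this change with the opposite sign, so the 2 are not independent. HIST genes of 1 exon block and at most 600 bases had a median change of 0.43, and the other HIST genes 0.10. The SE of single genes was large, at 2.23 for HIST1H3B. HIST3H2A had a change of -0.09 (SE 0.133) and HIST1H1C of -0.17 (SE 0.199). A change of all genes by the same factor is removed by the scaling and cannot be seen in these values.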

How the data were processed

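MeRIP-seq input and IP libraries of SK-N-BE(2) cells were grouped from the sample titles. The authors deposited raw read counts per gene without normalization; the notes name Trimmomatic 0.36 and GRCh38, and the aligner, counting tool and strand setting are not given in the sources used here. Of counts from 1 to 49, 77.2% were even, so both reads of a pair may each have been counted, and counts are then not independent molecules.

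Counts of all genes were tested in R 4.3.3 with edgeR 4.0.16 (filterByExpr, TMM factors, quasi-likelihood F test, Benjamini-Hochberg adjustment over all genes tested, threshold 0.05, prior count 2). The input comparison used 4 input libraries, and IP over input and its change used 1 model of 8 libraries with 4 group means. An SE was obtained as the size of the log2 fold change over the square root of its F. CPM per kb divides CPM by the listed exon length. Replicates differed by more than sampling noise (chi-square per gene 2.43 to 3.99). The IP and input of a culture share their RNA; their deviations from the group means correlated at 0.004 in sh-NC and 5.7e-05 in shMETTL14 over 22953 genes.

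Named genes are METTL14, the replacement genes tested, the 12 HIST genes with the highest mean input count, members that passed in the input comparison and their near-identical copies, and up to 4 called genes of each other list; SLBP, NPAT, CENPA, HIST3H2BB and the other genes named beyond this were picked with their values known. The members and lists were chosen with earlier results of these data known. Alternative fits used DESeq2 1.42.0, no low-count filter, a minimum of 10 counts per library, and RLE factors or the library size alone. Others used a block, genes without exon overlap, all 8 libraries for the input comparison, or left out each culture. The block was the culture for IP over input and its change. For the input comparison it was the sample number across the arms, and the labels do not state that samples of equal number belong together. A fit of the IP libraries alone was chosen after seeing the data. The fits were tested on simulated data. Promoters are RefSeq GRCh38.p14 sequences. A further gene of the neuroblastoma marker list is not reported here.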

Additional observations from a re-analysis of the deposited data

How the results depend on the processing

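H3F3B, H3F3C, H1F0 and HIST3H2A kept their input calls under every alternative fit run for them. Each other input call of a named HIST or replacement gene was lost in at least 3 alternatives. The number of HIST genes lower in the shMETTL14 inputs, 5, was 2 without the filter, 3 among genes without exon overlap, 2 in the IP libraries alone, which are HIST1H1C and HIST1H4E and none of the 5, and 0 to 4 when 1 culture was left out, with 0 without shMETTL14 replicate 2. The number of replacement genes lower, 6, was 2 without the filter, 3 among genes without exon overlap, and 2 to 5 when 1 culture was left out. For IP over input in sh-NC, 7 higher HIST genes became 4 among genes without exon overlap, 7 lower HIST genes became 3 with 10 counts or more in each library, 3 by DESeq2 and 4 to 5 with 1 culture left out, and 6 lower replacement genes became 1 among genes without exon overlap. For IP over input in shMETTL14, 8 higher HIST genes became 5 and 6 lower replacement genes became 1 among genes without exon overlap, and 4 lower HIST genes became 2 with 10 counts or more in each library and 2 to 4 with 1 culture left out. Fewer genes are tested among genes without exon overlap and with at least 10 counts; elsewhere the cause was not tested.

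With a block, 5 HIST genes rather than 7 were lower in the IP in sh-NC and 7 rather than 8 were higher in shMETTL14. No other count of calls given for HIST and replacement genes changed with the block. Some directions of genes that did not pass turned: the input log2 fold change of H2AFJ was -0.11 in the IP libraries alone and -0.011 to 0.068 with 1 culture left out, that of H2AFY2 was -0.061 to 0.0024, that of HIST2H2AA4 -1.27 to 0.050 and that of HIST2H4B -0.69 to 0.27 with 1 culture left out, and in the IP libraries alone HIST1H2BN was at 0.20 and HIST2H2BE at -0.13; for the change of IP over input METTL14 ranged from -0.0039 to 0.19 and HIST3H2A from -0.28 to 0.10. With library size alone the median of all genes moved by -0.13 for IP over input in sh-NC and by -0.12 in shMETTL14, and H2AFV, from 0.03 and -0.05, stood at -0.097 and -0.17; with 1 culture left out it was -0.12 to 0.024 in shMETTL14. Over the input values of the named genes, their called values of IP over input, those of H2AFV, and the change for METTL14, H3F3B, HIST3H2A and HIST1H1C, 769 alternatives kept direction and side of the threshold, 46 no longer passed, 4 passed anew and 12 turned direction. HIST1H1B, HIST1H1D, HIST1H2AJ, HIST1H2AL, HIST1H2BE, HIST1H2BF, HIST1H3B, HIST1H4A and the copies are not among the genes counted there. The 2 cultures per arm and low HIST counts limit precision; the SE of an input log2 fold change was 0.0982 for HIST3H2A and 0.433 for HIST3H2BB.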
